A study of Danio rerio with 3 samples.

Results

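Fibroblast growth factors (FGFs) are secreted signals that bind receptor tyrosine kinases at the cell surface together with heparan sulfate, and the bound receptors pass the signal through Ras, Raf and MEK to the MAP kinase ERK. ERK signalling turns on a small set of genes that serve as its readouts: the ETS transcription factors etv4 and etv5b, which carry the response into the nucleus, and the feedback inhibitors spry2, spry4 and dusp6, which damp it. In the zebrafish embryo this pathway is known for its work in the tailbud and presomitic mesoderm, at the midbrain-hindbrain boundary, and in the heart, ear and fin buds.

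The 10 genes described here are the 5 FGF receptor genes fgfr1a, fgfr1b, fgfr2, fgfr3 and fgfr4 and the 5 response genes etv4, etv5b, spry2, spry4 and dusp6, taken by symbol from a table of 25961 genes. All 10 were found, each as 1 row, and all 10 were among the 16429 genes that averaged at least 1 FPKM, called measured genes below. The embryos were of the Tuebingen strain and were collected 24 hours post fertilization. They had been injected at the 1-cell stage with hnrnpaba morpholino at 3 ng, hnrnpaba morpholino at 6 ng, or a standard control morpholino at 3 ng. Morpholinos are uncharged antisense oligomers used to block the translation or the splicing of a chosen RNA, and hnrnpaba is a zebrafish counterpart of human HNRNPAB, an RNA-binding protein. Each group was 1 library from 30 pooled whole embryos.

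With 1 library per group there is no replicate check and no test, so every difference below describes these 3 libraries and not the conditions. In whole embryos, fewer cells of a type and less RNA per cell cannot be told apart. The 6 ng library also differs from the control in the mass of oligomer injected. The libraries held 17748075 fragments at 3 ng, 13557636 at 6 ng and 14589056 in the control, as recovered from the FPKM values. The target transcript hnrnpaba stood at 459 FPKM at 3 ng and 342 FPKM at 6 ng, against 442 FPKM in the control, and since it is not stated whether the morpholino blocks translation or splicing, these levels do not check the labels. FPKM counts fragments relative to gene model length in kilobases and to the mapped fragments of the library, and so is a level per length. A fold is a ratio of FPKM, given with an exact interval at the 95% level for counting error alone. A log2 difference is taken on FPKM + 1, and a gene is counted as higher or lower where it is at least 2-fold apart on that scale.

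Most receptor genes were below the control and most response genes above it. At 3 ng all 5 receptor genes were below the control and 4 of 5 response genes were above it, although fgfr1a and fgfr4 moved to slightly above the control (log2 differences of 0.052 and 0.016) once the median of genes of like length was subtracted. At 6 ng 4 of 5 receptor genes were below the control and 4 of 5 response genes above, and the exception among the receptors, fgfr1a, was below it when libraries were rescaled by their median ratio. Over all measured genes the median log2 difference was itself 0.021 at 3 ng and 0.082 at 6 ng, so levels above the control were common. Several members lay near this background. etv4 at 3 ng had a higher log2 difference than 63.45% of measured genes, and spry2 at 6 ng than 57.7%. For fgfr1a and fgfr4 at 3 ng the shares were 39.4% and 36.3%. Farther from the middle lay fgfr2, fgfr3 and spry4. fgfr3 was the only member past the 2-fold limit, lower at both doses. That is 1 of 10 members at 3 ng, where 5.87% of all measured genes passed the limit in either direction, and 1 of 10 at 6 ng, where 10.8% did, so the members' count is near the background. A lower limit of 1.5-fold was passed by 3 of 10 members at 3 ng (spry4 above the control, fgfr2 and fgfr3 below it), where 21.1% of measured genes passed, and by 5 of 10 at 6 ng (with etv4 and dusp6 also above), where 30.3% did. The summed level of the 5 receptor genes was 82.0 FPKM at 3 ng and 85.9 FPKM at 6 ng, against 111 FPKM in the control, which is 0.737 and 0.772 of the control sum. The summed level of the 5 response genes was 164 FPKM at 3 ng and 182 FPKM at 6 ng, against 135 FPKM in the control, which is 1.22 and 1.35 times the control sum. dusp6 was the largest part of it, at 35.8% at 3 ng and 39.2% at 6 ng, against 33.1% in the control. The FPKM values of all genes also summed to more in the morphant libraries, 480820 at 3 ng and 466987 at 6 ng, against 454561 in the control. The sums given here were not rescaled for that.

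**Figure D1:**
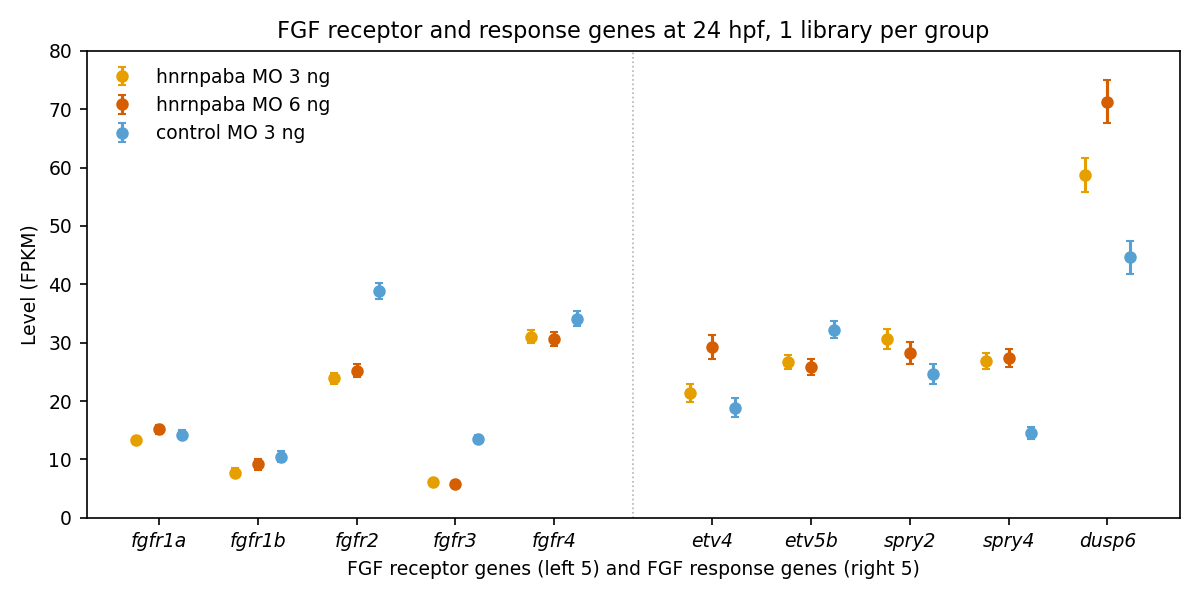
Level in FPKM of each of the 10 genes in the libraries given hnrnpaba morpholino (MO) at 3 ng and 6 ng and control morpholino at 3 ng. Points are single libraries and bars are exact Poisson intervals at the 95% level, for counting error alone. fgfr2 and fgfr3 are lower in both hnrnpaba morphant libraries than in the control, and spry4 and dusp6 are higher.

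Among the receptors, fgfr3 was farthest below the control. In mammals this receptor is known for restraining growth of the long bones. fgfr3 (ENSDARG00000004782) lies on chromosome 13 from 13213567 to 13294872 on the minus strand in the coordinates of the deposited table, which come with no stated genome build. fgfr3 stood at 6.09 FPKM at 3 ng and 5.79 FPKM at 6 ng, against 13.5 FPKM in the control. Both hnrnpaba morphant libraries were thus low, and their counting intervals (5.69 to 6.501 FPKM at 3 ng and 5.35 to 6.26 FPKM at 6 ng) overlapped each other and lay below that of the control (12.9 to 14.2 FPKM). At 3 ng the fold was 0.450 (0.414 to 0.489), and at 6 ng 0.429 (0.391 to 0.470). The log2 differences of fgfr3, -1.03 and -1.10, lay just past the limit. Of all measured genes, 1.97% had a lower log2 difference than fgfr3 at 3 ng and 3.65% at 6 ng.

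fgfr2, which in vertebrates serves epithelia and the limb or fin bud, was the next lowest (ENSDARG00000058115, chromosome 13, 46298560 to 46429433, minus strand). fgfr2 stood at 23.9 FPKM at 3 ng and 25.1 FPKM at 6 ng, against 38.8 FPKM in the control. At 3 ng its fold was 0.616 (0.584 to 0.649), and at 6 ng 0.647 (0.612 to 0.685). The log2 differences of -0.68 and -0.61 did not reach the 2-fold limit. Together fgfr2 and fgfr3 held 30.0 FPKM at 3 ng and 30.9 FPKM at 6 ng, against 52.4 FPKM in the control, so this pair of genes accounted for most of the lower receptor sum.

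The other receptor genes were closer to the control. fgfr1b (ENSDARG00000011190, chromosome 10, 42589391 to 42661445, plus strand), the less abundant copy of the duplicated fgfr1 gene in each library, stood at 7.70 FPKM at 3 ng and 9.16 FPKM at 6 ng, against 10.5 FPKM in the control. The fold of fgfr1b was 0.733 (0.640 to 0.840) at 3 ng and 0.872 (0.758 to 1.003) at 6 ng, so the 6 ng library was not apart from the control beyond counting error. Its copy fgfr1a (ENSDARG00000011027, chromosome 8, 51430597 to 51524453, minus strand) stood at 13.3 FPKM at 3 ng and 15.2 FPKM at 6 ng, against 14.3 FPKM in the control. The fold of fgfr1a was 0.931 (0.869 to 0.997) at 3 ng and 1.06 (0.990 to 1.14) at 6 ng, so its 6 ng library too was within counting error of the control. fgfr4 (ENSDARG00000069105, chromosome 21, 37183124 to 37194839, minus strand) stood at 31.0 FPKM at 3 ng and 30.7 FPKM at 6 ng, against 34.1 FPKM in the control, with folds of 0.909 (0.865 to 0.956) and 0.899 (0.852 to 0.948). How reads of the duplicated copies were divided is not given, so the levels of fgfr1a and fgfr1b carry that uncertainty.

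The order of the receptor genes by level per length differed between the libraries. In both hnrnpaba morphant libraries the order was fgfr4, fgfr2, fgfr1a, fgfr1b and fgfr3, with no overlap of neighbouring counting intervals. In the control the order was fgfr2, fgfr4, fgfr1a, fgfr3 and fgfr1b, and the intervals of fgfr1a and fgfr3 overlapped. fgfr4 was 1.297 times the level of fgfr2 at 3 ng and 1.22 times at 6 ng, against 0.878 times in the control. The ratio of fgfr4 to fgfr3 was 5.10 at 3 ng and 5.29 at 6 ng, against 2.53 in the control. As a share of the summed receptor level, fgfr3 made up 7.42% at 3 ng and 6.74% at 6 ng, against 12.2% in the control. fgfr4 made up 37.8% and 35.7%, against 30.7%.

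**Figure D2:**
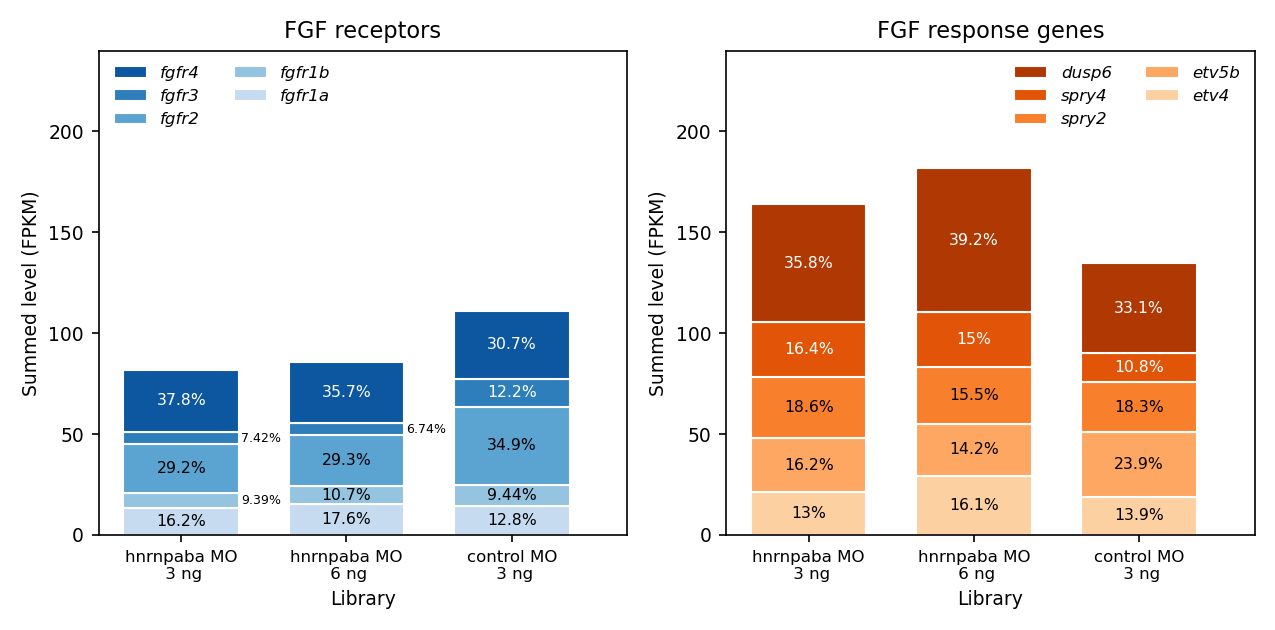
Summed level in FPKM of the 5 FGF receptor genes (left) and the 5 FGF response genes (right) in each library, with each gene's percent of its sum. The receptor bars are shorter in the hnrnpaba morphant libraries (82.0 and 85.9 FPKM) than in the control (111 FPKM), and the response gene bars are taller (164 and 182 FPKM, against 135 FPKM).

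Among the response genes, spry4 was farthest above the control. Sprouty proteins inhibit receptor tyrosine kinase signalling between the receptor and ERK, and spry4 is used as a readout of FGF activity in zebrafish. spry4 (ENSDARG00000068732, chromosome 21, 44684577 to 44691068, plus strand) stood at 26.9 FPKM at 3 ng and 27.3 FPKM at 6 ng, against 14.5 FPKM in the control. Both hnrnpaba morphant libraries were high and alike. The fold of spry4 was 1.86 (1.70 to 2.03) at 3 ng and 1.89 (1.72 to 2.07) at 6 ng. Its log2 differences, 0.85 and 0.87, did not reach the 2-fold limit, and were above those of 94.7% and 91.4% of all measured genes. The related sprouty gene spry2 (ENSDARG00000078308, chromosome 1, 5273481 to 5277583, plus strand) stood at 30.6 FPKM at 3 ng and 28.2 FPKM at 6 ng, against 24.6 FPKM in the control, with folds of 1.24 (1.14 to 1.36) and 1.15 (1.04 to 1.26). spry4 was thus at 0.879 times the level of spry2 at 3 ng and 0.968 times at 6 ng, against 0.588 times in the control.

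dusp6, which encodes a phosphatase that removes the activating phosphates of ERK in the cytoplasm, was the most abundant of the 10 genes in every library (ENSDARG00000070914, chromosome 25, 18326298 to 18330503, minus strand). dusp6 stood at 58.7 FPKM at 3 ng and 71.2 FPKM at 6 ng, against 44.6 FPKM in the control. The counting intervals of its 3 levels did not overlap, so the levels ran in the order control, 3 ng, 6 ng. The fold of dusp6 was 1.32 (1.21 to 1.43) at 3 ng and 1.60 (1.47 to 1.73) at 6 ng.

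The ETS factor genes went in different directions. etv4 (ENSDARG00000018303, chromosome 12, 27536095 to 27568694, plus strand) stood at 21.3 FPKM at 3 ng and 29.3 FPKM at 6 ng, against 18.8 FPKM in the control. Its fold was 1.14 (1.02 to 1.27) at 3 ng and 1.56 (1.39 to 1.74) at 6 ng, so most of the difference lay in the 6 ng library. An unnamed gene on the opposite strand covers the whole of etv4, but it stood at 0 FPKM in both hnrnpaba morphant libraries and at 0.0749 FPKM in the control. etv5b (ENSDARG00000044511, chromosome 6, 14030903 to 14040161, minus strand) was the response gene below the control, at 26.6 FPKM at 3 ng and 25.8 FPKM at 6 ng, against 32.2 FPKM in the control. Its fold was 0.827 (0.776 to 0.881) at 3 ng and 0.800 (0.747 to 0.857) at 6 ng. The ratio of etv4 to etv5b was 0.801 at 3 ng and 1.14 at 6 ng, against 0.584 in the control.

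The order of the response genes by level also differed. In the control the order was dusp6, etv5b, spry2, etv4 and spry4, with no overlap of neighbouring intervals. At 3 ng the order was dusp6, spry2, spry4, etv5b and etv4, and the intervals of spry4 and etv5b overlapped. At 6 ng dusp6 was followed by etv4, spry2, spry4 and etv5b, which lay between 25.8 and 29.3 FPKM with overlap between each pair of neighbours.

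**Figure D3:**
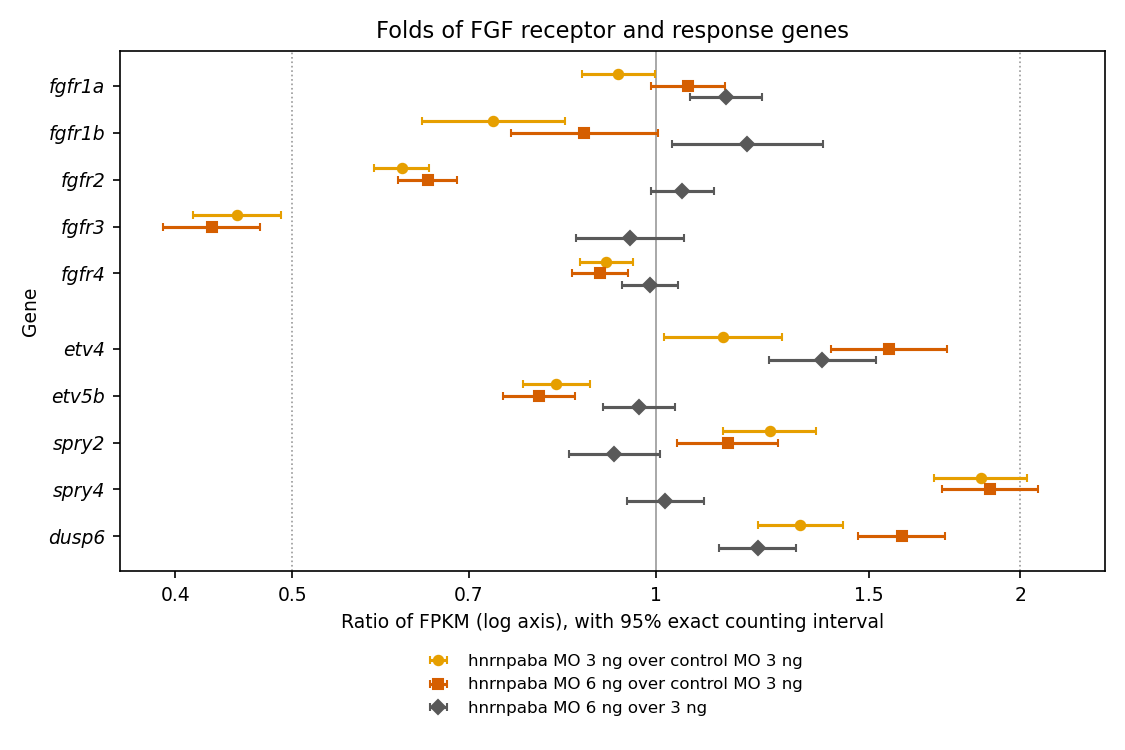
Ratio of FPKM on a log axis for each of the 10 genes in each pair of libraries, hnrnpaba morpholino at 3 ng over control, 6 ng over control, and 6 ng over 3 ng, with 95% exact counting intervals. Dotted lines mark 2-fold. fgfr3 lies below 0.5 at both doses, spry4 lies near 1.9 at both doses, and etv4 and dusp6 are the response genes whose 6 ng over 3 ng intervals lie above 1.

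Counting error alone separates most genes at this depth. At 3 ng all 10 members had a fold whose interval excluded 1, as did 61.3% of measured genes, and at 6 ng 8 of 10 did, as did 66.5% of measured genes. These intervals leave out the spread between pools of embryos, which 1 library per group cannot show.

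The 6 ng library was then set against the 3 ng library of the same morpholino, a comparison that does not use the control. None of the 10 members was past the 2-fold limit, where 2.11% of all measured genes were. The interval of the fold excluded 1 for 4 of 10 members (45.8% of measured genes), and all of these were higher at 6 ng. The median log2 difference over all measured genes was 0.053 in this comparison, so the middle of the table was slightly higher at 6 ng too. With libraries rescaled by the median ratio these 4 members stayed higher at 6 ng, but their intervals were not recomputed. etv4 was 1.37-fold higher (1.24 to 1.52), dusp6 1.21-fold (1.13 to 1.30), fgfr1b 1.19-fold (1.03 to 1.37) and fgfr1a 1.14-fold (1.07 to 1.22). For the other 6 members the intervals held 1. The fold was 1.02 (0.945 to 1.10) for spry4, 0.924 (0.846 to 1.01) for spry2, 0.968 (0.903 to 1.04) for etv5b, 1.05 (0.990 to 1.12) for fgfr2, 0.952 (0.858 to 1.06) for fgfr3 and 0.988 (0.938 to 1.04) for fgfr4. Thus fgfr3, fgfr2, fgfr4, spry4, spry2 and etv5b, whose intervals against the control excluded 1 at both doses, stood at like levels at both doses. Because both doses were set against 1 control library, that likeness is not independent support for either difference.

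Receptor gene models were long, and length moved with the differences over the whole table. The gene model lengths recovered from the FPKM values were 8112 bases for fgfr3, 7424 for fgfr1a, 5936 for fgfr4, 5768 for fgfr2 and 2965 for fgfr1b, against 1485 for dusp6, 1974 for etv4, 2297 for spry2, 3447 for spry4 and 4118 for etv5b. With measured genes divided by length into 10 groups, the median log2 difference of the longest group was -0.15 at 3 ng and -0.11 at 6 ng, and that of the shortest group was 0.18 and 0.19. With the median of genes of like length subtracted, fgfr3 was at -0.89 at 3 ng and -0.99 at 6 ng and no longer passed the 2-fold limit, fgfr2 was at -0.60 and -0.59, and spry4 was at 0.88 and 0.85. The signs of these genes held, while dusp6 was at 0.29 and 0.51 and etv4 at 0.14 and 0.49.

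**Figure D4:**
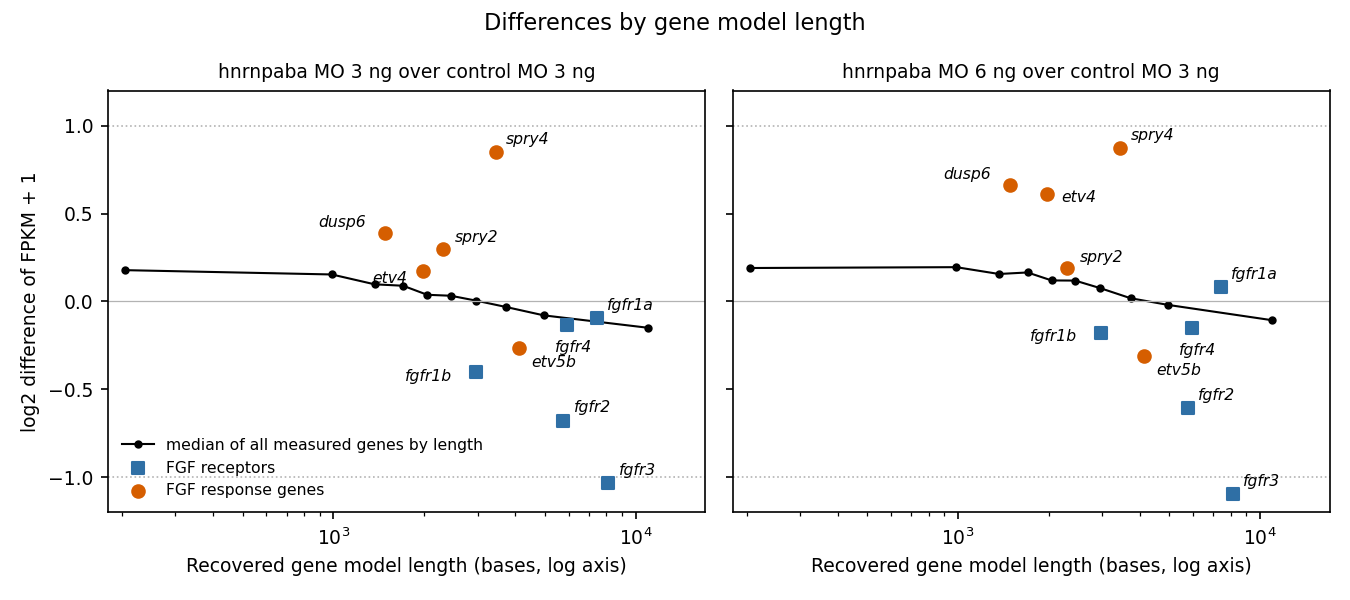
Log2 difference of FPKM + 1 against gene model length (log axis, bases) for the 10 genes, with the median of all measured genes in 10 length groups as a line, for hnrnpaba morpholino at 3 ng (left) and 6 ng (right) over control. Receptor genes (squares) are mostly long and response genes (circles) shorter, and the line slopes from 0.18 to -0.15 at 3 ng and from 0.19 to -0.11 at 6 ng. fgfr2, fgfr3 and spry4 lie farthest from it.

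Other genes of the pathway were read from lists of ligands, receptors, response genes, transducers and heparan sulfate genes. Among all measured genes the median log2 difference was 0.021 at 3 ng and 0.082 at 6 ng. Of 24 secreted ligand genes in the table, 13 were measured, and 0 were past the limit at 3 ng and 1 was higher at 6 ng, with medians of 0.17 and 0.30. That gene was fgf2, at 3.23 FPKM at 3 ng and 6.53 FPKM at 6 ng, against 1.999 FPKM in the control, and its fold at 6 ng was 3.27 (2.09 to 5.25) on 82 fragments at 6 ng and 27 in the control. fgf8a, the main ligand of the midbrain-hindbrain boundary and of the tailbud, was not apart from the control beyond counting error. fgf8a stood at 3.10 FPKM at 3 ng and 4.02 FPKM at 6 ng, against 3.28 FPKM in the control, with folds of 0.945 (0.723 to 1.24) and 1.23 (0.939 to 1.61). fgf3, which acts beside fgf8a in the hindbrain and ear, stood at 6.78 and 6.33 FPKM, against 4.72 FPKM, with folds of 1.44 (1.15 to 1.80) and 1.34 (1.06 to 1.70). fgf24, a ligand of the pectoral fin bud, stood at 1.59 and 2.02 FPKM, against 1.21 FPKM. Most ligand genes had low levels, and the 24 together summed to 45.8 FPKM at 3 ng and 49.8 FPKM at 6 ng, against 38.5 FPKM in the control.

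The further response genes lay on both sides of the control, 7 above and 8 below at each dose. Of the 17 listed genes found, 15 were measured, and 0 were past the limit at either dose, while the median was -0.053 at 3 ng and -0.013 at 6 ng. The log2 differences of these 15 genes ran from -0.89 to 0.76 at 3 ng and from -0.87 to 0.91 at 6 ng. The list thus reached about as far below the control as above it. il17rd, which encodes the membrane protein Sef that dampens FGF signalling in zebrafish, stood at 9.23 FPKM at 3 ng and 10.4 FPKM at 6 ng, against 5.27 FPKM in the control. Its folds of 1.75 (1.57 to 1.96) and 1.97 (1.76 to 2.201) were close to those of spry4. cnpy1, which acts in FGF receptor maturation at the zebrafish midbrain-hindbrain boundary, stood at 11.8 and 12.0 FPKM, against 6.59 FPKM, with folds of 1.80 (1.501 to 2.16) and 1.82 (1.504 to 2.197). etv5a, the duplicate of etv5b, was below the control as etv5b was. etv5a stood at 13.8 FPKM at 3 ng and 14.6 FPKM at 6 ng, against 19.95 FPKM in the control, with folds of 0.694 (0.635 to 0.757) and 0.734 (0.668 to 0.805). spred1, a relative of the sprouty genes, stood at 12.9 and 11.9 FPKM, against 13.4 FPKM, with intervals that held 1 at both doses.

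Signal transducers and accessory receptors were close to the control. Of 26 measured transducer genes 0 were past the limit at either dose, and their medians were -0.094 at 3 ng and 0.10 at 6 ng. mapk3, which encodes ERK1, stood at 42.1 FPKM at 3 ng and 50.97 FPKM at 6 ng, against 43.5 FPKM in the control. Neither of the 2 measured accessory receptor genes, nor any of the 3 measured intracellular FGF genes, was past the limit at either dose.

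Of 22 measured genes that build, trim or carry heparan sulfate, the cofactor of FGF binding, 0 were higher and 3 lower at 3 ng, and 1 was higher and 3 lower at 6 ng, while the medians were -0.11 and 0.069. Of all measured genes 5.87% at 3 ng and 10.8% at 6 ng were past the limit in either direction. The 3 lower genes were the sulfotransferase gene ndst3 and the endosulfatase genes sulf2a and sulf2b, whose enzymes remove sulfate from heparan sulfate outside the cell. sulf2a stood at 7.53 FPKM at 3 ng and 3.37 FPKM at 6 ng, against 18.5 FPKM in the control, with folds of 0.407 (0.367 to 0.451) and 0.182 (0.155 to 0.212). sulf2b stood at 3.25 and 3.68 FPKM, against 9.53 FPKM, with folds of 0.341 (0.297 to 0.391) and 0.386 (0.333 to 0.445). ndst3 had folds of 0.268 (0.229 to 0.312) and 0.110 (0.0845 to 0.141). The higher gene at 6 ng was gpc5a, which encodes a glypican core protein, at 5.05 FPKM at 6 ng, against 1.51 FPKM in the control.

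**Figure D5:**
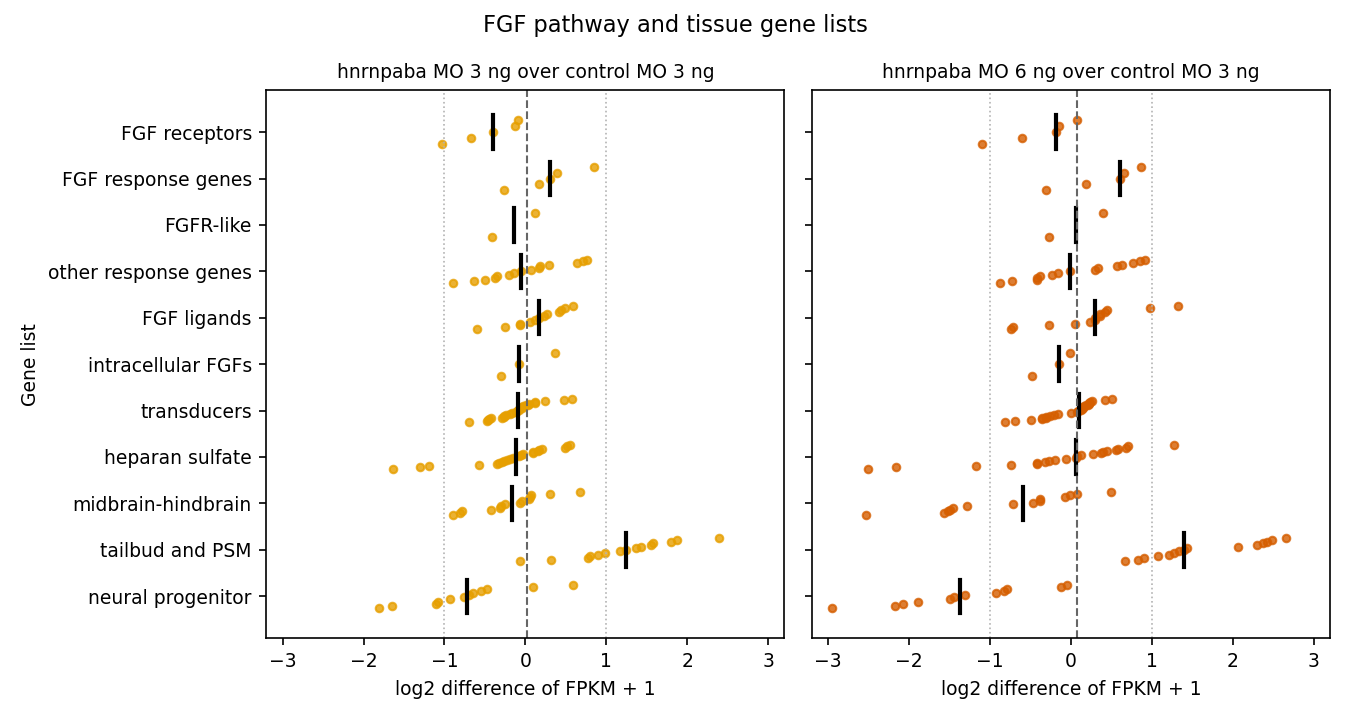
Log2 difference of FPKM + 1 of the measured genes of each list, for hnrnpaba morpholino at 3 ng (left) and 6 ng (right) over control. Points are genes, short black bars are list medians, the dashed line is the median of all measured genes and dotted lines mark 2-fold. The receptor medians lie left of the dashed line (-0.40 and -0.18) and the response gene medians right of it (0.30 and 0.61). Among the FGF pathway lists, fgfr3 and 3 heparan sulfate genes are past the lower limit at both doses. fgf2 and gpc5a are past the upper limit at 6 ng. The tailbud and presomitic mesoderm (PSM) list lies to the right (medians 1.245 and 1.40) and the neural progenitor list to the left (-0.72 and -1.37).

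Marker lists of tissues in which FGF signalling is known to act were read in the same libraries, where 5.87% of all measured genes were past the limit in either direction at 3 ng and 10.8% at 6 ng. Of 15 measured tailbud and presomitic mesoderm genes, 9 were higher and 0 lower at 3 ng, and 12 were higher and 0 lower at 6 ng. The 16 such genes that were found summed to 168 FPKM at 3 ng and 230 FPKM at 6 ng, against 66.9 FPKM in the control. Of 12 measured neural progenitor genes, 0 were higher and 4 lower at 3 ng, and 0 were higher and 7 lower at 6 ng, and these 12 summed to 272 FPKM and 163 FPKM, against 490 FPKM. Of 14 measured midbrain-hindbrain boundary genes, 0 were past the limit at 3 ng and 6 were lower (pax2b, pax5, en2a, en2b, otx2b and gbx1, all transcription factor genes) and 0 higher at 6 ng. The 16 found in the table summed to 76.96 FPKM and 49.2 FPKM, against 85.0 FPKM. Of the 14 measured boundary genes, 5 were above the control and 9 below at 3 ng, and 2 were above and 12 below at 6 ng. The highest by log2 difference at both doses was gbx2, with folds of 1.69 (1.42 to 2.01) and 1.47 (1.22 to 1.78). No marker of these lists was at 0 in any library. The part of these tissues in the levels of the FGF receptor and response genes was not tested.

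fgfr3, the member with the largest difference at 6 ng, was set beside the 6201 genes that averaged at least 10 FPKM. Likeness was the distance between pairs of log2 differences, 3 ng and 6 ng against the same control, so it rests on 3 libraries. The nearest genes were ewsr1b (an RNA-binding protein, distance 0.027), stag1b (a cohesin subunit, 0.028), col1a1b (a type I collagen chain, 0.047), sfpq (a splicing factor, 0.058) and marcksa (a protein kinase C substrate, 0.060). In total, 10 genes lay within a distance of 0.1. fgfr3 itself and fgfr1b averaged less than 10 FPKM, so fgfr1b was not among the genes compared, and none of the other 8 members was among the 5 nearest.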

How the data were processed

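RNA was sequenced from 3 libraries of 30 pooled embryos each on a BGISEQ-500, and the reads were placed on a zebrafish genome and gene set, per the labels' protocols. The authors deposited FPKM values for 25961 genes with symbols and positions. Not given in the sources used here are the aligner, counting tool, RNA selection, strandedness, build and annotation. The control column was matched to the control morpholino library as the 1 control of the series, and 0 columns of values were unused.

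Whole fragments behind the FPKM values were recovered from genes whose length equals their span, which gave each library's total, and then from the shortest length that made a gene's fragments whole in all 3 libraries (99.97% of genes). Where such a length is a fraction of the true one, the counts are too low and the intervals too wide. Folds have 95% exact Clopper-Pearson intervals, conditional on the fragments of both libraries. Levels have exact Poisson intervals. Log2 differences use a pseudocount of 1 FPKM, which understates those of low genes, and genes averaging at least 1 FPKM entered counts. No p-value was computed. The calculation was also run on simulated fragments drawn with the recovered lengths. That run cannot show where a recovered length is a fraction of the true one.

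The 10 members and the lists were chosen with earlier results of these data known. Of 175 list symbols, 141 were matched by the table's symbol and 17 by a table of gene names, and 17 were not matched. List genes could be named where past 2-fold in any comparison, and fgf3, fgf8a, fgf24, il17rd, etv5a, spred1, cnpy1 and mapk3 were named whatever their difference. gbx2 and sulf1 were named after seeing the data, as genes that went the other way from the named lower genes of their lists. Not every gene that could be named is reported here, and the tailbud and neural progenitor lists are given as counts and sums. Promoter sequences were not analysed here. Alternatives were other pseudocounts, filters, scalings and a 1.5-fold limit, and, chosen after seeing the data, no pseudocount and subtraction of the median of genes of like length. Python 3.11.15, numpy 2.4.6, pandas 2.3.3, scipy 1.17.1 and matplotlib 3.10.9 were used.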

Additional observations from a re-analysis of the deposited data

How the results depend on the processing

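fgfr3 was the 1 member past the 2-fold limit against the control at each dose. With a pseudocount of 5 FPKM it was at -0.74 at 3 ng and -0.78 at 6 ng and 0 members were past the limit, and 0 were with the length-group median subtracted, a setting chosen after seeing the data. With a limit of 1.5-fold, which 21.1% of measured genes passed at 3 ng and 30.3% at 6 ng, 1 member was higher (spry4) and 2 lower (fgfr2 and fgfr3) at 3 ng, and 3 were higher (spry4, dusp6 and etv4) and 2 lower at 6 ng. A pseudocount of 0.1 FPKM, no filter, a mean of 5 FPKM or more, and rescaling to equal sums or by the median ratio gave the same counts of members past 2-fold, and no setting put a member past 2-fold between 6 ng and 3 ng. Over all measured genes, subtracting the length-group median moved the share of called genes that were higher to 52.5% at 3 ng and 46.2% at 6 ng, against 62.6% and 58.1% as deposited. Of the list medians, that of the ligands was 0.51 at 3 ng and 0.67 at 6 ng with a mean of 5 FPKM or more. Only fgf3 and 1 other ligand gene passed that filter, so those medians rest on few genes. The median of the tailbud and presomitic mesoderm genes was 0.61 at 3 ng and 0.87 at 6 ng with a pseudocount of 5 FPKM. With a pseudocount of 0.1 FPKM it was 1.87 at 3 ng, against 1.245 with 1 FPKM. Members with few fragments, such as fgfr1b (405 at 3 ng, 368 at 6 ng and 454 in the control), have the widest intervals. No paired analysis was possible because each group had 1 library.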
